A study of Mus musculus with 6 samples.

Results

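The type I interferon-stimulated genes were followed in RNA of the abdominal aorta as a list of 40 genes, chosen by gene name: antiviral effectors, sensors of foreign RNA and DNA, and factors that carry the interferon signal to the nucleus. Each of the 40 was found once in the deposited table of 55426 genes. Type I interferons (the interferon-α family and interferon-β) are cytokines that cells release when they sense viral or misplaced nucleic acid. They bind the receptor pair IFNAR1 and IFNAR2, the kinases JAK1 and TYK2 become active, and a complex that holds STAT2 and IRF9 binds the interferon-stimulated response element (ISRE) in promoters. In the vessel wall smooth muscle cells, endothelial cells, fibroblasts and resident macrophages can all mount this response.

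The libraries came from 3 male Prdm16SMKO mice and 3 male control mice of strain C57BL/6J. Prdm16SMKO mice carry *Prdm16* flox/flox alleles and a tamoxifen-activated Cre under the *Myh11* promoter (*Myh11*-CreERT2, whose cassette sits on the Y chromosome), which limits the deletion to smooth muscle. Control mice are described by the study as wild-type animals that carry *Myh11*-CreERT2. Males of 8 to 10 weeks received 75 mg/kg/day of tamoxifen by gavage on 5 days in a row, and total RNA was taken 2 weeks later, without a separate course given for controls. The 3 libraries of a group were labelled as separate replicates, and p-values measure the spread between them. The question addressed was whether the interferon-stimulated genes differ in level between aortas of Prdm16SMKO and control mice.

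In each library 20332 to 22100 genes were above 0 TPM (transcript level per unit of length, with one total for all libraries). Mitochondrial genes took 15.8% to 27.4% of the TPM and the 45S ribosomal RNA genes 15.6% to 31.4%. The targeted gene, *Prdm16*, a zinc finger transcription factor, was at 33.42, 36.83 and 30.77 TPM in the controls and at 20.75, 27.67 and 14.77 TPM in Prdm16SMKO aortas. The groups did not overlap, with a log2 difference (Prdm16SMKO minus control) of -0.70 ± 0.23 (SE; adjusted p = 0.376 from limma with Benjamini-Hochberg adjustment, as for every adjusted p). *Prdm16* RNA remained above 0 in all 3 knockout libraries. The smooth muscle markers *Myh11*, *Acta2*, *Tagln* and *Cnn1*, all detected, summed to between 13964 and 23769 TPM in controls and between 10711 and 16536 TPM in Prdm16SMKO libraries.

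Some promoters of the list carry the response element. The genes were chosen as interferon-stimulated, so a high share with this element is tied to the choice and is not an independent result. In the RefSeq promoters of GRCm38.p6 (250 bases before to 50 after a start site), 29 of the 40 genes had an entry. The core of the response element, GAAANNGAAA on either strand, stood in 14 of these 29 (48.3%), against 3.99% of the 27025 genes with an entry. Of its 23 occurrences, 17 in 10 genes lay wholly before the start site, at a median of 95 bases from it. The stretches below, each read 5′ to 3′ on the strand of the gene, show the core in capitals and in this spelling or as its reverse complement, TTTCNNTTTC. They were picked to set genes with an unadjusted p under 0.05 between the groups (*Ifit1*, *Ifit3*, *Rsad2* and *Oas1a*) beside genes without (*Isg15*, *Bst2* and *Stat2*).
*Ifit1* (chr19:34640777-34640821, plus strand, 2 cores): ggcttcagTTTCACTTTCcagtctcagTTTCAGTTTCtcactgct
*Ifit3* (chr19:34583365-34583424, plus strand, 2 cores): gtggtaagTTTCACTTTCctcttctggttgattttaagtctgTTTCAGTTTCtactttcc
*Rsad2* (chr12:26456555-26456580, minus strand, 1 core): ggtccaacTTTCATTTTCagaaaaca
*Oas1a* (chr5:120907526-120907553, minus strand, 2 overlapping cores): cttctcggGAAATGGAAACTGAAAatct
*Isg15* (chr4:156200867-156200904, minus strand, 3 overlapping cores): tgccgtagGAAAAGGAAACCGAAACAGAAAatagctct
*Bst2* (chr8:71537579-71537610, minus strand, 2 overlapping cores): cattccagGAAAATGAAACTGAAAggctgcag
*Stat2* (chr10:128270268-128270293, plus strand, 1 core): caccctggTTTCAGTTTCctttccct

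The stretch of *Ifit3* recurs in the promoter of its neighbour *Ifit3b* (chr19:34607761-34607820), where 60 of 60 bases are the same. A second motif, TTCNNNGAA, the core of the interferon-γ-activated site (GAS), stood in 6 of the 29 promoters (20.7%), 4 of which also held the ISRE core, and in 9.55% of all genes with an entry. A match of letters is a description, and binding was not measured. *Dhx58*, *Mx1*, *Mx2*, *Rtp4*, *Ifi27*, *Ifi27l2a*, *Usp18*, *Oas2*, *Parp9*, *Parp14* and *Zbp1* had no entry under their symbols.

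Of the 40 genes, 37 averaged 0.5 TPM or more over the 6 libraries and were tested. *Oas1a* and *Oasl1* averaged 0.473 TPM each in controls and passed this minimum through the knockout libraries, so that a difference was built in for them. The levels of the tested genes in Prdm16SMKO aortas were above those of controls in 35 (54.2% of the 15775 genes tested had a log2 fold change above 0), by a median log2 fold change of 0.58 against 0.02 over all genes tested. By limma, 1 of the 37 had an adjusted p under 0.05, *Rtp4*, a receptor chaperone that interferon induces. Over all genes tested, 56 passed that threshold (0.355%). At an unadjusted p under 0.05, 15 of the 37 were higher and 0 lower, where 4.88% of all genes tested were higher. In 15 of the 37, every Prdm16SMKO library lay above every control (7.02% of all genes tested). These counts describe genes that share their regulation and are not independent of each other. With 3 libraries against 3, an exact permutation test of a single gene cannot give a two-sided p under 0.1.

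**Figure D1:**
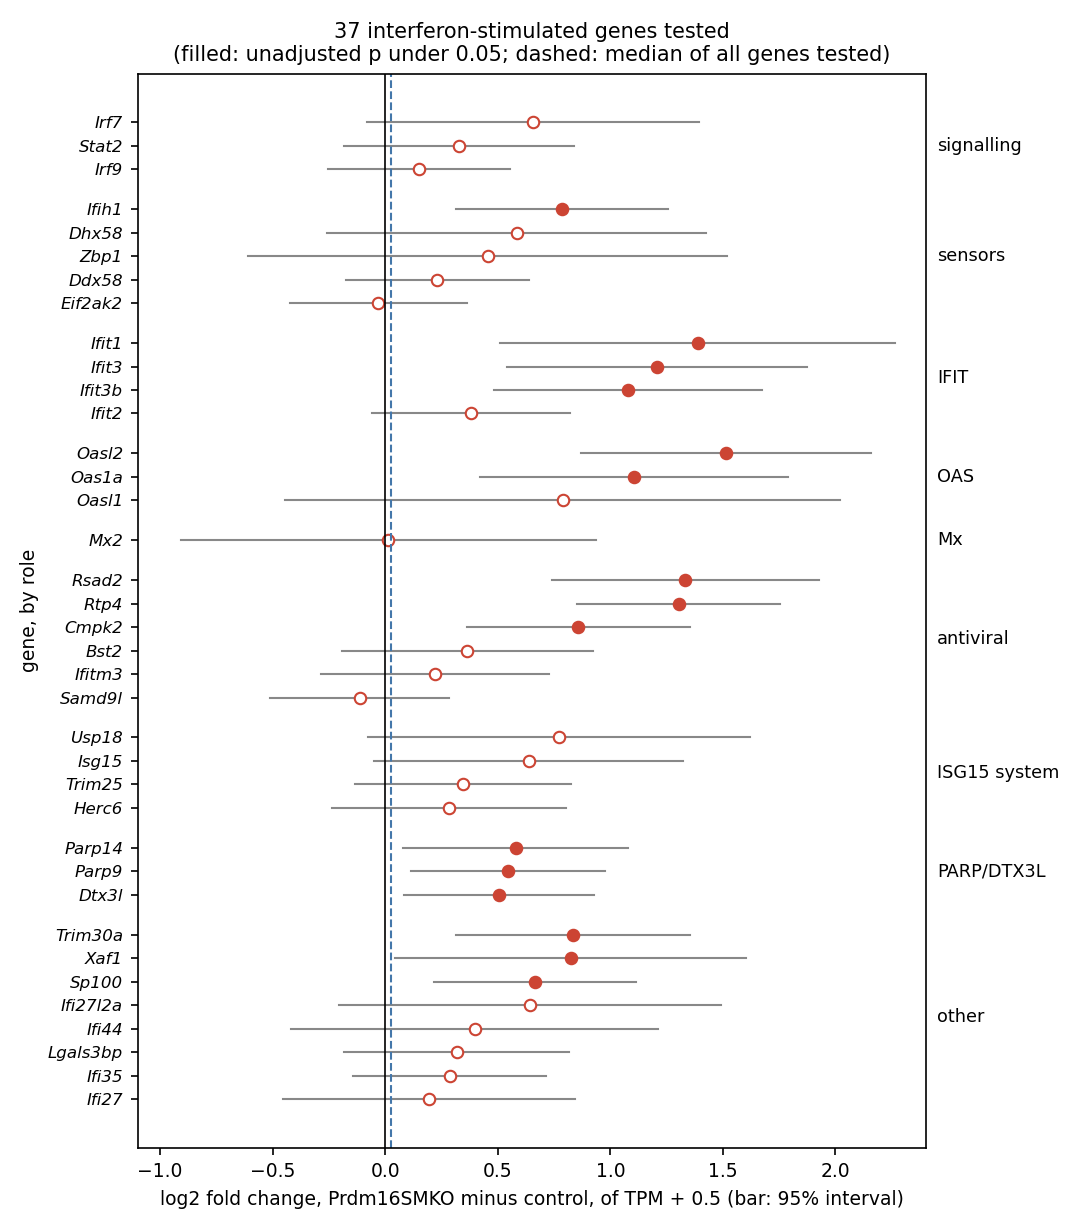
The log2 fold change of each of the 37 tested genes, Prdm16SMKO minus control on log2(TPM + 0.5), is plotted by role with its 95% interval (limma), filled where the unadjusted p was under 0.05; the dashed line is the median of all genes tested, 0.02. Points lie between -0.11 (*Samd9l*) and 1.52 (*Oasl2*), and 35 of 37 are right of 0.

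*Rtp4* (chr16:23520291-23614222) was at 2.05, 2.47 and 2.18 TPM in controls and at 7.04, 6.51 and 5.27 TPM in Prdm16SMKO aortas. All 3 knockout libraries stood above all controls, and the controls lay close together. The log2 fold change was 1.30 ± 0.20 (SE; limma, adjusted p = 0.0405), on a scale of TPM + 0.5 that understates the change of low genes. The call was lost when any 1 of the 6 libraries was left out (adjusted p 0.0652 to 0.179), while the fold change stayed between 1.22 and 1.41. Of its windows of 151 bases, the length of a read, 6.88% also occur in transcripts of Gm45338.

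The OAS genes encode oligoadenylate synthetases, which on binding foreign RNA make the second messenger that switches on RNase L, and their relatives. *Oasl2* (chr5:114896936-114912234) had the largest fold change of the 37. It was at 3.06, 4.14 and 2.47 TPM in controls and at 11.49, 13.01 and 6.57 TPM in Prdm16SMKO aortas. The groups did not overlap, with the third knockout library nearest to the controls. The log2 fold change was 1.52 ± 0.28 (SE; limma, adjusted p = 0.075), and without Prdm16SMKO replicate 3 it was 1.80, with an adjusted p of 0.0372. *Oas1a* ran from 0.32 to 0.64 TPM in controls and from 1.34 to 1.95 TPM in Prdm16SMKO aortas (log2 fold change 1.10, unadjusted p = 0.00554, adjusted p = 0.266). Of its read-length windows, 32.3% also occur in transcripts of *Oas1g*, so its level depends on how shared reads were divided. *Oasl1*, next to *Oasl2* with a gap of 11 kb, overlapped between the groups (0 to 1.21 against 0.46 to 1.91 TPM).

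Both remaining OAS genes were below the minimum. *Oas2* was at 0.33, 0.32 and 0.09 TPM in controls and at 0.54, 0.29 and 0.74 TPM in knockouts, and *Oas3* at 0.02, 0.11 and 0 against 0.17, 0.23 and 0.08 TPM. Values this low overlapped and give no fold. The Mx genes, of a family of dynamin-like GTPases, were also low. *Mx1* was at 0.15, 0.31 and 0.04 TPM in controls and at 1.03, 1.01 and 0.07 TPM in knockouts, so that 2 of 3 knockout libraries stood above all controls and 1 among them. *Mx2* overlapped entirely (0.66 to 1.66 against 0.54 to 1.79 TPM, log2 fold change 0.01).

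The IFIT proteins bind viral RNA that lacks the host's cap marks and stop its translation. Their 4 genes lie side by side on chromosome 19, in the order *Ifit2*, *Ifit3*, *Ifit3b* and *Ifit1*, with gaps of 7.1, 19.2 and 27.5 kb. *Ifit3* was at 9.29, 14.02 and 5.64 TPM in controls and at 22.24, 24.48 and 18.38 TPM in Prdm16SMKO aortas. The groups did not overlap although the controls differed among themselves more than the knockouts did. The log2 fold change of *Ifit3* was 1.21 ± 0.29 (SE; limma, unadjusted p = 0.00284, adjusted p = 0.192).

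*Ifit3b* had a log2 fold change of 1.08 (adjusted p = 0.191) and *Ifit1* one of 1.39 (adjusted p = 0.271), both without overlap of the groups. *Ifit1* was at 1.03, 2.84 and 1.03 TPM in controls and at 7.34, 4.27 and 3.24 TPM in knockouts, so the second control and the third knockout library stood close to each other. *Ifit2*, at 6.95 to 9.29 against 8.97 to 12.63 TPM, overlapped (log2 fold change 0.38, adjusted p = 0.676). The median over the 4 genes was 1.14. *Ifit3* and *Ifit3b* share 18.4% and 15.8% of their read-length windows with each other, so reads cannot be fully told apart between them.

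**Figure D2:**
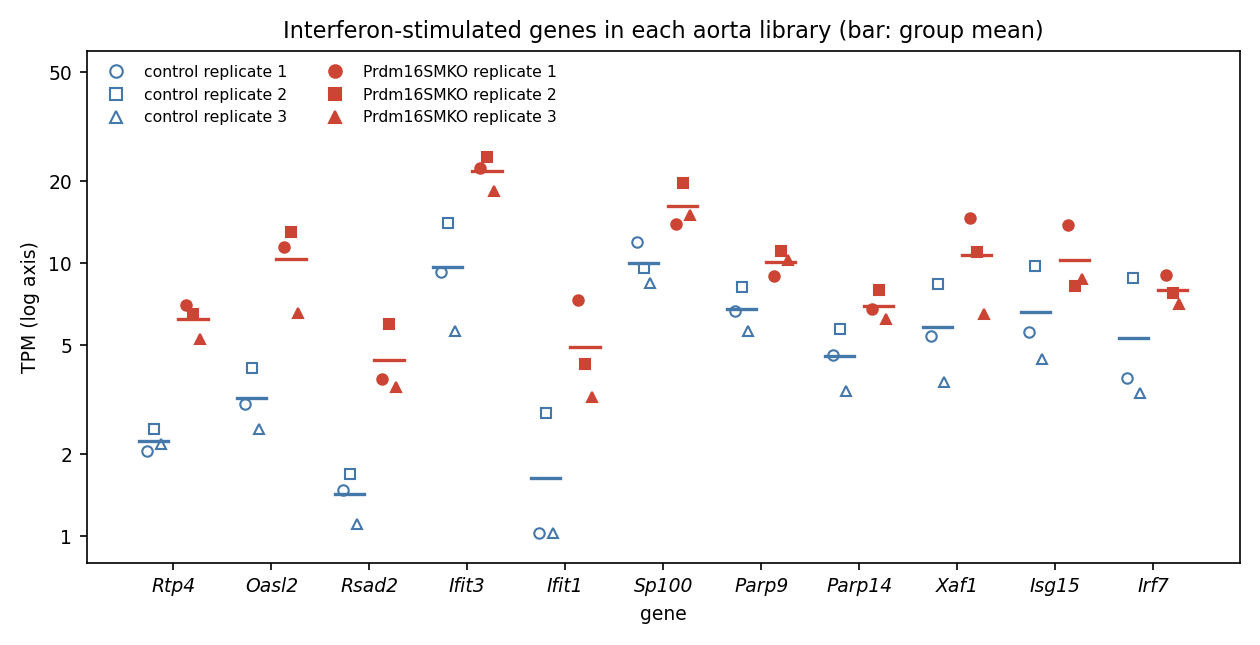
TPM on a log axis is plotted for 11 of the genes in each library, open blue for controls and filled red for Prdm16SMKO, with a marker shape for each replicate and a bar at the group mean. *Rtp4*, *Oasl2*, *Rsad2*, *Ifit3*, *Ifit1*, *Sp100*, *Parp9* and *Parp14* do not overlap between groups, whereas *Xaf1*, *Isg15* and *Irf7* do because control replicate 2 reaches into the knockout range.

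Among the other antiviral effectors, *Rsad2* and *Cmpk2* form a pair on chromosome 12 with a gap of 12.8 kb. *Rsad2* encodes viperin, an enzyme that turns CTP into a chain terminator of viral polymerases, and *Cmpk2* a mitochondrial nucleotide kinase. *Rsad2* was at 1.48, 1.69 and 1.11 TPM in controls and at 3.78, 5.98 and 3.53 TPM in knockouts. It did not overlap, and its log2 fold change was 1.33 ± 0.26 (SE; limma, adjusted p = 0.092). *Cmpk2* did not overlap either, from 2.27 to 2.64 TPM in controls and from 4.05 to 6.11 TPM in knockouts (log2 fold change 0.86, adjusted p = 0.22).

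The membrane effectors were abundant and did not pass the test. *Bst2*, or tetherin, which holds budding virus to the cell, was at 27.11 to 52.57 TPM in controls and at 40.9 to 54.66 TPM in knockouts (log2 fold change 0.36, adjusted p = 0.815). *Ifitm3*, which hinders fusion of virus with endosomes, was at 107 to 188.49 against 147.28 to 162.07 TPM (0.22, adjusted p = 0.903). *Samd9l*, a restriction factor, had the lowest fold change of the list, -0.11 (adjusted p = 0.95).

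The sensors recognise foreign nucleic acid before interferon is made and are themselves induced by it. *Ifih1* encodes MDA5, which reads long RNA duplexes. It ran from 2.19 to 2.44 TPM in controls and from 3.77 to 5.33 TPM in knockouts, without overlap (log2 fold change 0.79, unadjusted p = 0.00456, adjusted p = 0.247). *Ddx58*, which encodes RIG-I, also did not overlap, yet by a narrow margin, at 7.5 to 10.15 against 10.25 to 11.69 TPM (log2 fold change 0.23, adjusted p = 0.847). *Dhx58* (LGP2, a regulator of both) and *Zbp1* (a sensor of Z-form nucleic acid) overlapped, with log2 fold changes of 0.58 and 0.46. *Eif2ak2*, the kinase PKR that halts translation on RNA duplexes, was at 8.66 to 11.17 against 8.71 to 10.7 TPM, a log2 fold change of -0.03 with a 95% interval of -0.42 to 0.36.

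The signalling factors of the list did not pass the test at an unadjusted p under 0.05. *Irf7*, the factor that amplifies interferon-α production, was at 3.79, 8.85 and 3.35 TPM in controls and at 9.09, 7.81 and 7.09 TPM in knockouts. Its groups overlapped through control replicate 2 alone, and the log2 fold change of 0.66 ± 0.32 (SE; limma, adjusted p = 0.655) became 1.06 without that library. *Stat2* had a log2 fold change of 0.33 (adjusted p = 0.819) and *Irf9* one of 0.15 (adjusted p = 0.922).

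ISG15 is a ubiquitin-like protein that interferon-treated cells attach to other proteins or secrete. *Isg15* was at 5.6, 9.76 and 4.46 TPM in controls and at 13.85, 8.29 and 8.75 TPM in Prdm16SMKO aortas. Control replicate 2 stood above 2 of the 3 knockout libraries, and the log2 fold change was 0.64 ± 0.30 (SE; limma, unadjusted p = 0.0655, adjusted p = 0.628). *Usp18*, which removes ISG15 and restrains the receptor, *Herc6*, its main mouse ligase, and *Trim25*, a ligase for ISG15 and RIG-I, had log2 fold changes of 0.77, 0.28 and 0.35, and each overlapped. *Isg15* lies at chr4:156199424-156200818, 1.56 Mb from *Prdm16* (chr4:154316125-154636873). The interval of 15 Mb on either side of *Prdm16* held 194 tested genes, and 54 of them passed an unadjusted p of 0.05 in either direction (27.8%, against 8.74% of all genes tested). *Isg15* was the 1 gene of the list in that interval, and whether its position bears on its level was not tested.

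*Parp9* and *Dtx3l* encode partners in a ubiquitin ligase, and *Parp14* attaches ADP-ribose to proteins. Their genes lie close together on chromosome 16. *Parp9* was at 6.67, 8.16 and 5.64 TPM in controls and at 8.98, 11.08 and 10.3 TPM in knockouts. *Parp14* was at 4.6, 5.76 and 3.4 TPM in controls and at 6.79, 7.95 and 6.24 TPM in knockouts. Both, and *Dtx3l* with them (3.52 to 4.56 against 5.29 to 6.23 TPM), did not overlap between the groups. The 3 log2 fold changes were alike at 0.50 to 0.58, with unadjusted p-values of 0.0186, 0.0281 and 0.024 for *Parp9*, *Parp14* and *Dtx3l* and adjusted p-values of 0.435 to 0.485. *Dtx3l* and *Parp9* overlap in the annotation, and reads in the overlap may count toward either.

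Of the 8 other interferon-induced genes, *Sp100*, *Xaf1* and *Trim30a* had an unadjusted p under 0.05. *Sp100*, a protein of the nuclear bodies that silence viral genomes, was at 11.92, 9.59 and 8.47 TPM in controls and at 13.91, 19.6 and 14.97 TPM in knockouts, without overlap (log2 fold change 0.67, adjusted p = 0.327). *Xaf1*, which promotes apoptosis by binding the inhibitor XIAP, was at 5.43, 8.41 and 3.69 TPM in controls and at 14.62, 11.02 and 6.54 TPM in knockouts. The third knockout library lay below the second control, and the log2 fold change was 0.82 ± 0.34 (SE; limma, unadjusted p = 0.0406, adjusted p = 0.54). *Trim30a*, a restriction factor of mice, ran from 1.68 to 2.26 TPM in controls and from 3.21 to 4.6 TPM in knockouts (log2 fold change 0.83, adjusted p = 0.266).

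*Ifi27* and *Ifi27l2a*, small mitochondrial membrane proteins with genes 1.9 kb apart on chromosome 12, were the most abundant of the list with *Ifitm3*. *Ifi27l2a* was at 121.65, 119.41 and 81.54 TPM in controls and at 132.46, 107.41 and 319.02 TPM in knockouts. *Ifi27* was at 183.92, 182.39 and 122.22 TPM in controls and at 176.47, 127.04 and 274.03 TPM in knockouts. Both were highest in Prdm16SMKO replicate 3 and overlapped in the other libraries, with adjusted p-values of 0.739 and 0.945. Without replicate 3 the log2 fold change of *Ifi27l2a* went from 0.64 to 0.17 and that of *Ifi27* from 0.19 to -0.10. That library also had the highest brown adipocyte marker sum (*Ucp1*, *Cidea* and *Elovl3*, none at 0 in all libraries), 478.33 TPM, against 47.97 to 158.8 TPM in controls and 5.09 and 85.86 TPM in the other knockouts. The part of fat tissue in these levels was not tested. *Lgals3bp*, *Ifi35* and *Ifi44* overlapped, with log2 fold changes of 0.32, 0.29 and 0.40.

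Most tested genes of the list averaged under 10 TPM, and so did most of those with an unadjusted p under 0.05. The 12 tested genes that averaged 10 TPM or more over the 6 libraries had a median log2 fold change of 0.30, and *Ifit3* and *Sp100* were the 2 with an unadjusted p under 0.05. The 25 genes under 10 TPM had a median of 0.66 and held the other 13, *Oas1a* among them, for which a difference was built in. Over all genes tested the same split gave medians of -0.01 and 0.07. The share of all genes tested that were higher at that p-value, 4.88%, was not split by level. By promoter, the 13 tested genes with an ISRE core had a median log2 fold change of 0.79, with 7 at an unadjusted p under 0.05. The 15 with an entry but no core had a median of 0.40, with 5 such genes, among them *Oasl2*. The 9 without an entry had a median of 0.58, with 3 such genes, among them *Rtp4*. The 7 with a core included *Oas1a*, and *Ifit3* and *Ifit3b*, which have the same promoter stretch and share reads. The share of all genes tested at that p-value was not computed by core. Over all tested genes with an entry, the medians were 0.09 for 405 genes with the core and 0.02 for 10456 without. The difference between these groups of genes was not tested.

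**Figure D3:**
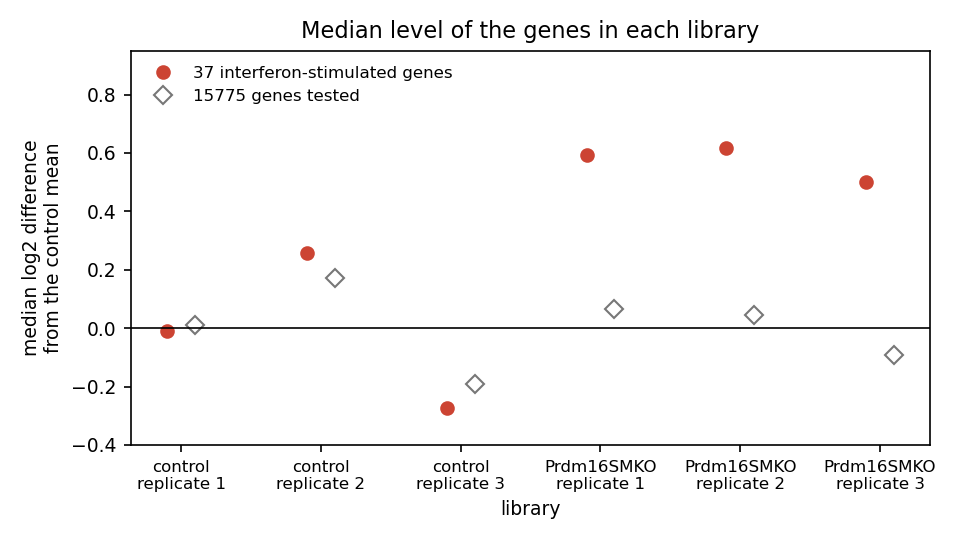
For each library the median log2 difference from the control mean is plotted over the 37 tested interferon-stimulated genes (filled circles) and over all 15775 genes tested (open diamonds). The knockout libraries stand at 0.59, 0.62 and 0.50 for the list and between -0.09 and 0.06 for all genes.

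Across the list, all 3 knockout libraries stood above the controls. The median log2 difference from the control mean was 0.59, 0.62 and 0.50 in Prdm16SMKO replicates 1, 2 and 3, and -0.01, 0.26 and -0.27 in control replicates 1, 2 and 3. Over all genes tested the controls stood in the same order, at 0.01, 0.17 and -0.19, and the knockouts at 0.06, 0.05 and -0.09. Control replicate 3 was the lowest of the 6 libraries in 29 of the 37 genes, and it held the highest share of 45S ribosomal RNA, 31.4%. Control replicate 2 was the highest control in 30 genes and had the lowest such share, 15.6%. In Prdm16SMKO replicates 1, 2 and 3 the share was 15.7%, 29.9% and 21.7%. The knockout with the highest share, replicate 2, thus had the highest median of the list. With TPM divided by median-of-ratios size factors, which take out shifts of a whole library, the median of the list was 0.57. The count at an unadjusted p under 0.05 was then 19. Leaving out control replicate 2 gave a count of 23 and a median of 0.72, and leaving out control replicate 3 gave 11 and 0.41. The median of all genes tested moved in the same direction, to 0.11 and -0.07. The share of all genes tested at that p-value was not computed for these fits. The replicate 1 knockout library was highest of the 6 in 12 genes, *Isg15*, *Ifit1* and *Xaf1* among them, and replicate 2 in 17.

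Upstream of the list, the ligands were at or near 0. All 21 interferon genes of types I, II and III were below the minimum, and 18 of them, *Ifnb1* and *Ifng* included, were listed at 0 in all 6 libraries. The exceptions were each above 0 in 1 library, *Ifnk* at 0.12 TPM in a control, and *Ifne* at 0.21 and *Ifna16* at 0.25 TPM in a knockout. Depth per library is not in the table, so no limit of detection could be set. The receptors were expressed at similar means in both groups. *Ifnar1* had a mean of 14.8 TPM in controls and 13.9 TPM in knockouts, a log2 fold change of -0.06 with a 95% interval of -0.50 to 0.37. *Ifnar2* had means of 26.6 and 27.5 TPM, a log2 fold change of 0.05 with an interval of -0.33 to 0.42. For the interferon-γ receptor, *Ifngr1* and *Ifngr2* had log2 fold changes of 0.19 and -0.01, and for the interferon-λ receptor *Ifnlr1* and *Il10rb* had -0.34 and 0.15.

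Of the receptor kinases, *Jak1* and *Tyk2* had log2 fold changes of 0.01 and 0.07, with adjusted p-values of 0.994 and 0.974. Among the 5 kinases and STATs tested, 1 was higher at an unadjusted p under 0.05 by limma (4.88% of all genes tested). *Irf1*, a transcription factor that interferon induces, did not overlap between the groups, at 11.1 to 13.04 against 15.92 to 17.46 TPM (log2 fold change 0.45, limma, adjusted p = 0.421). *Irf3*, which switches on interferon-β when a sensor fires, had a log2 fold change of -0.01, and *Irf8*, a factor of myeloid cells, one of 0.42 (adjusted p = 0.821).

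Over the whole pathway list (ligands, receptors, kinases, IRFs, sensor adaptors and regulators), 40 of 62 genes were tested, and 0 had an adjusted p under 0.05 by limma. At an unadjusted p under 0.05 there were 8, all higher (4.88% of all genes tested were higher, and 8.74% differed in either direction). Of these 8, *Tlr7* and *Tlr8* had a control mean under 0.5 TPM and passed the minimum only through the knockout libraries, so a difference was built in for them. Among those with the smallest p were *Tlr8* (log2 fold change 1.17), a sensor of RNA in endosomes, *Irf1*, *Uba7* (0.93), the activating enzyme of ISG15, and *Ptpn6* (0.70), a phosphatase of blood cells. The median of the 40 was 0.10. The count dropped to 2, 3 or 5 when Prdm16SMKO replicate 2, control replicate 3 or control replicate 1 was left out.

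A second list of 74 genes that interferons induce, none of them among the 40, was read beside them. It was chosen with earlier results of these data known and is not independent support. Of 59 tested, 53 were higher and 6 lower, with a median log2 fold change of 0.35, where 54.2% of all genes tested were higher and their median was 0.02. At an unadjusted p under 0.05, 19 were higher (4.88% of all genes tested) and 0 lower by limma. Among the 19, *Ccl5*, *Cxcl10* and *Ms4a4c* passed the expression minimum only through the knockout libraries, so a difference was built in for them. *Psmb8*, an interferon-γ-inducible subunit of the immunoproteasome, was the 1 gene with an adjusted p under 0.05. It was at 14.43, 13.87 and 12.23 TPM in controls and at 24.47, 31.94 and 30.56 TPM in knockouts (log2 fold change 1.07 ± 0.17, SE, adjusted p = 0.0416). Left out one at a time, only the removal of Prdm16SMKO replicate 1 kept this call (0.0409, otherwise 0.118 to 0.163). The next were *Mndal* (0.91) and *Lgals9* (0.74), the chemokine *Ccl5* (2.01, from 0 to 0.56 TPM in controls and 1.23 to 3.76 TPM in knockouts) and *Gbp2* (0.76), a GTPase that interferon-γ strongly induces, with adjusted p-values of 0.109 to 0.17.

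**Figure D4:**
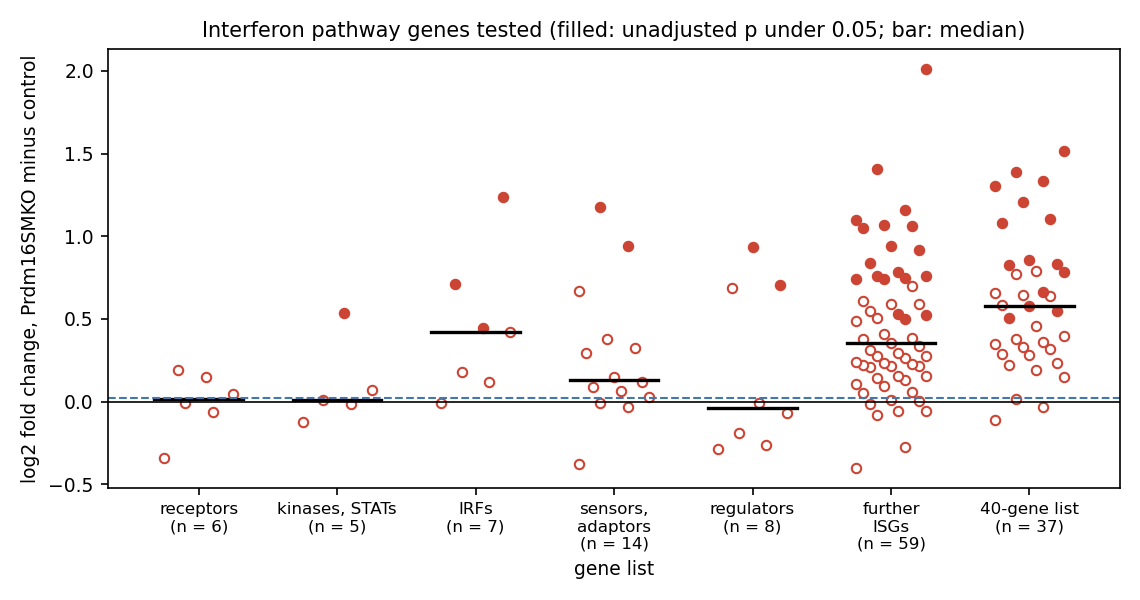
Log2 fold changes (Prdm16SMKO minus control) are plotted for the tested genes of each tier of the interferon pathway, for the second list of interferon-stimulated genes and for the 40-gene list, with filled points at an unadjusted p under 0.05 and a bar at each median; the dashed line is the median of all genes tested, 0.02. The medians are 0.02 for the receptors, 0.01 for the kinases with STATs, 0.42 for the IRFs, 0.35 for the second list and 0.58 for the 40-gene list. Of the 5 kinases and STATs, 1 is filled.

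Of the 8 lists of immune cell markers, 4 had a sum that was higher in every Prdm16SMKO library than in every control. The 5 macrophage markers (*Adgre1*, *Cd68*, *Csf1r*, *C1qa* and *Mrc1*, none at 0 in all libraries) summed to 29.25 to 45.09 TPM in controls and to 47.54 to 83.2 TPM in Prdm16SMKO aortas. The 3 monocyte markers (*Ly6c2*, *Ccr2* and *Plac8*) summed to 2.2 to 3.33 against 5.51 to 7.93 TPM. The 4 T cell markers summed to 0.25 to 0.56 against 1.09 to 1.64 TPM and the 3 NK cell markers to 0 to 0.13 against 0.2 to 1.57 TPM. None of these 4 sums overlapped between the groups, but single markers within them did. *C1qa*, *Cd68*, *Ccr2* and *Plac8* did not overlap, while *Csf1r*, *Adgre1*, *Mrc1* and *Ly6c2* did. *Mrc1* ran from 2.8 to 5.69 TPM in controls and from 3.67 to 7.13 TPM in knockouts. *Ly6c2* was at 0.68, 0.51 and 1.98 TPM in controls and at 2.13, 1.66 and 0.07 TPM in knockouts. The T cell and NK cell sums were low, and the NK sum of Prdm16SMKO replicate 3, 0.2 TPM, stood close to the highest control. In whole aorta, more cells of a type and more RNA of these genes per cell cannot be told apart. The part of immune cells in the levels was not tested.

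The other lists overlapped between the groups. The 4 markers of plasmacytoid dendritic cells, a main source of interferon-α in blood, summed to 0.39 to 1.1 TPM in controls and to 0.63 to 1.46 TPM in knockouts, with the defining marker *Siglech* at 0.06 to 0.7 TPM over the 6 libraries. The 4 neutrophil markers, with *Ly6g* at 0 in every library, the 4 B cell markers and the 4 conventional dendritic cell markers overlapped as well. Endothelial markers were highest in Prdm16SMKO replicate 2, at 365.08 TPM. Without Prdm16SMKO replicate 1, in which *Isg15*, *Ifit1* and *Xaf1* were highest, the log2 fold changes of these genes were 0.41, 1.09 and 0.57.

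**Figure D5:**
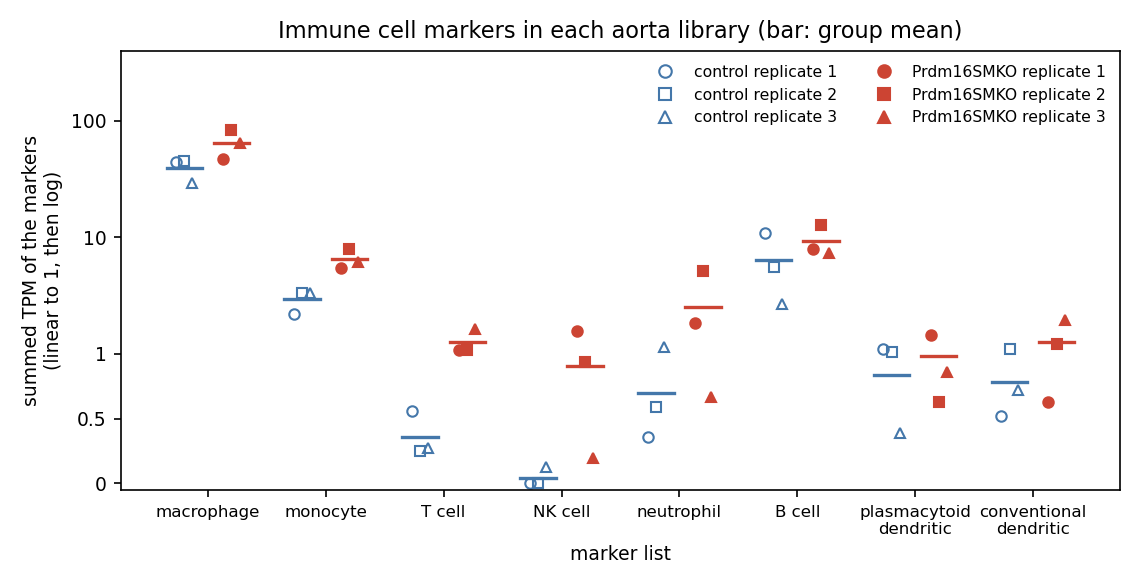
The summed TPM of each immune marker list is plotted for each library (axis linear up to 1 TPM and logarithmic above), open blue for controls and filled red for Prdm16SMKO, with a bar at the group mean. The macrophage, monocyte, T cell and NK cell sums do not overlap between the groups, and the other 4 do.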

How the data were processed

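RNA of whole abdominal aorta was selected for poly(A), prepared with the NEBNext Ultra kit and sequenced by the authors as 151-base read pairs, on average 40 M per sample per the labels. The authors deposited TPM for 55426 genes, rounded to 2 decimals, and raw counts and the depth of each library were not used here, so no counting error could be given. The submitters' processing notes name cutadapt 2.3, STAR 2.7.8a, RSEM 1.3.3 and GRCm38. The kit's strand setting and the annotation release are not given in the sources used here.

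TPM was taken as log2(TPM + 0.5), and 15775 genes, those averaging 0.5 TPM or more, were compared with limma 3.58.1 in R 4.3.3 (moderated variance with a trend, two-sided, Benjamini-Hochberg adjusted over all of them). Genes were placed by identifier on GENCODE M21, also GRCm38. The fit was run on simulated data with noise drawn separately for each gene and library. Shifts of a whole library and shared regulation were not simulated, so the calls were not checked against them. The members, lists and named genes were chosen with earlier results of these data known. By the rule, genes with an unadjusted p under 0.05 and a mean of at least 5 TPM, or below the minimum, are given in every library, and *Rtp4*, *Rsad2*, *Ifit1*, *Isg15*, *Irf7*, *Ifi27* and *Ifi27l2a* were added after their values were seen. A few genes of the lists are not reported here by name. Promoters were read from the RefSeq table of GRCm38.p6. Python 3.11.15 with pandas 2.3.3 drew up the tables and matplotlib 3.10.9 the figures. The 16 alternatives cover the pseudocount, the minimum, the scaling, the variance model, library weights, a replicate block and each library left out.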

Additional observations from a re-analysis of the deposited data

How the results depend on the processing

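Under the 16 alternatives the median log2 fold change of the interferon-stimulated genes ran from 0.41 to 0.72. The median of all genes tested ran from -0.07 to 0.11. Of the 37 tested genes of the list, 34 kept their sign. The exceptions were *Ifi27* (-0.0623 with array weights, and from -0.0959 without Prdm16SMKO replicate 3 to 0.4571 without Prdm16SMKO replicate 2), *Eif2ak2* (0.0503 without Prdm16SMKO replicate 3 and 0.0441 without control replicate 1) and *Mx2* (-0.0015 with a pseudocount of 0.1, -0.0993 with quantile normalization, and from -0.2738 without control replicate 1 to 0.3869 without Prdm16SMKO replicate 2, below 0 also without Prdm16SMKO replicate 1 or 3). The cause was not tested. The number of the genes with an adjusted p under 0.05 was 1; it was 0 with no minimum mean and with variances without a trend, 2 with a minimum of 2 TPM and with mitochondrial and 45S genes removed, 3 with size factors and 9 with array weights, and from 0 to 1 with 1 library left out. The number at an unadjusted p under 0.05 was 24 with array weights and from 11 to 23 with 1 library left out. In the pathway list the number at an unadjusted p under 0.05 was 5 with no minimum mean, 4 with a minimum of 2 TPM and 13 with array weights, and from 2 to 7 with 1 library left out. Over all genes the number called was 56, and 10 with no minimum mean, 153 with size factors, 129 with quantile normalization, 123 with mitochondrial and 45S genes removed, 33 without a trend, 494 with array weights and 5 to 61 with 1 library left out. With the replicate number as a block, 0 of the interferon-stimulated genes and 4 of all genes were called. In that fit 5 of the pathway list had an unadjusted p under 0.05. Deviations of same-numbered libraries from their group means correlated at -0.131, -0.11 and 0.019, and those of unlike-numbered libraries at -0.167 to 0.242. With 3 libraries a group, these values cannot decide whether same-numbered libraries were paired, and the labels name no pairing. Calls of single genes rest on 3 mice a group, and the depth behind low values is unknown.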
